A study of Mus musculus with 4 samples.

Results

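Ephrins, semaphorins, netrins and slits are guidance cues, and Eph receptors, plexins, neuropilins and robos are among the receptors that read them. Their genes were examined in mouse molar tooth germs cultured with the dioxin TCDD (2,3,7,8-tetrachlorodibenzo-p-dioxin). Members were the probe sets whose single gene symbol begins as Efna, Efnb, Epha, Ephb, Sema, Plxna to Plxnd, Ntn, Slit or Robo followed by a number, or is Nrp1 or Nrp2. This gave 55 probe sets of 42 genes, out of 12488 probe sets on the array and 8251 genes with a single symbol. They comprise 8 ephrins, 9 Eph receptors, 16 semaphorins, 5 plexins, Nrp1, Ntn1, Robo1 and Robo3. Slit genes and Nrp2 were not analysed here.

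Mandibular molar regions of NMRI embryos at embryonic day 14 were kept for 24 h in organ culture, either with DMSO solvent at 0.65% or with 1 µM TCDD. Each group had 2 arrays, and each array received RNA of about 60 explants pooled over 3 experiments, so that a value averages over epithelium, mesenchyme and any nerve, vessel or muscle in the explant. Ascorbic acid is listed in the medium of DMSO replicate 2 and of no other sample. Labelling started from 11 µg of RNA in both replicate 1 samples, 7 µg in DMSO replicate 2 and 8 µg in TCDD replicate 2. In such bulk samples, fewer cells of a type and less RNA per cell cannot be told apart. The p-values measure the spread between these pools only.

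The guidance families include cues bound to the cell surface and secreted cues. Ephrin-A proteins are held in the membrane by a lipid anchor and ephrin-B proteins span it, and both bind Eph receptor tyrosine kinases on neighbouring cells, with signals running into both cells. Class 3 semaphorins are secreted and act through a neuropilin that holds the ligand and a plexin that signals, whereas most other semaphorins stay on the membrane and bind plexins directly. Netrin-1 attracts or repels axons depending on the receptor, and robo proteins are the receptors of slits. In the tooth germ Sema3a is known as a repellent that holds trigeminal nerve fibres outside the dental mesenchyme until innervation begins.

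The values are MAS5 signals, a linear hybridisation intensity that the authors scaled to a target of 100 on every array. Differences are in log2(signal + 16), which understates changes of dim probe sets, and were tested with limma over 5783 probe sets whose mean signal was at least 50. The exposure itself was visible: of 5 listed targets of the aryl hydrocarbon receptor, which TCDD activates, 4 were in the fit and all 4 were higher, 2 of them past the adjusted threshold of 0.05. Cyp1a1, a cytochrome P450 gene, went from 14.7 and 12.7 in DMSO to 194.8 and 210.5 in TCDD. In all, 4 probe sets (0.0692%) passed an adjusted p of 0.05.

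No guidance gene passed the test. Of the 55 probe sets, 27 (22 genes) reached the filter, and 0 of these 27 had a limma adjusted p under 0.05. It was 0.997 for each of them and is not repeated below. At an unadjusted limma p under 0.05 there was 1, Sema6d, where 2.59% of all probe sets tested were below that value. By sign, 20 of the 27 were lower in TCDD and 7 higher, with a median log2 difference of -0.09. Over all probe sets tested 48.9% were lower and the median was 0.01. The SD between replicate arrays of the members' median log2(signal + 16) was 0.15, larger than the members' median difference. Without DMSO replicate 1 the count was 13 of 25. Sema6d and Sema4b 162133_at, both lower over all 4 arrays, then fell below the filter, and 7 of the 25 turned sign. The excess of lower signs thus rested in part on that array. The count was 17 of 27 without DMSO replicate 2, 17 of 28 without TCDD replicate 1 and 19 of 26 without TCDD replicate 2. The shares of all probe sets lower in these 3-array fits were not counted. In the replicate 1 arrays 19 of 27 were lower in TCDD (48.3% of all probe sets) with a median of -0.18, and in the replicate 2 arrays 12 of 27 (49.8% of all) with a median of 0.03.

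The 2 TCDD arrays lay outside the range of the 2 DMSO arrays at 6 of the 27 probe sets, 1 higher (Nrp1) and 5 lower (Efnb3, Ephb6, Sema4f, Sema6d and Ntn1). These 6 are 22.2% of the members in the fit. Over all probe sets tested the share was 29.8%, made of 15.3% higher and 14.6% lower. With 1 array left out only 2 array pairs have to agree, and the count was 12 of 25 without DMSO replicate 1, 18 of 27 without DMSO replicate 2, 18 of 28 without TCDD replicate 1 and 17 of 26 without TCDD replicate 2, each over the members that reached the filter on those 3 arrays. The shares of all probe sets in these 3-array fits were not counted, so the counts say nothing about the members in particular. No member had a ratio of at least 2 in all 4 array pairs (0.0865% of all probe sets did). The 95% limma intervals of 25 of the 27 lay within a 2-fold change either way, as did those of 93.5% of all probe sets. The exceptions were Sema6c and Sema6d.

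**Figure D1:**
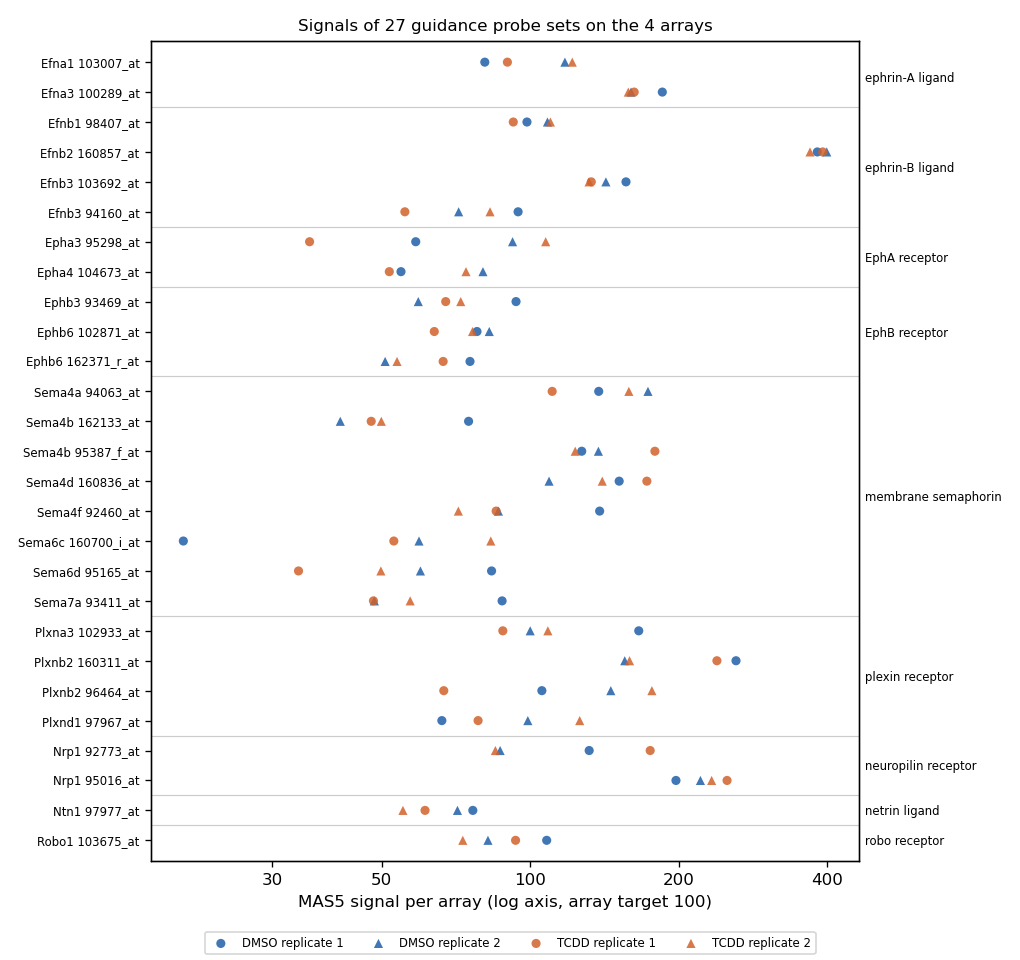
MAS5 signal (log axis) of the 27 guidance probe sets with a mean of at least 50, ordered by role, with 1 point per array (blue DMSO, orange TCDD, circles replicate 1, triangles replicate 2). Circles often sit on one side and triangles on the other, as for Epha3, Plxnb2 and Plxnd1, while colours separate fully at 6 probe sets.

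Ephrin ligands differed between the groups by -0.22 to 0.09 on the log2 scale over 6 probe sets, 5 of them lower in TCDD and 1 higher. Efnb2, a transmembrane ephrin and marker of arterial endothelium, had 382.1 and 399.3 in DMSO and 391.8 and 369.3 in TCDD. The groups overlapped, and the log2 difference was -0.04 ± 0.18 (SE), with a 95% interval from -0.44 to 0.37. Efnb1, which takes part in the sorting of cells into separate compartments, had 98.5 and 108.4 in DMSO against 92.4 and 109.9 in TCDD, with replicate 2 the higher array in both groups (log2 difference -0.03, interval -0.50 to 0.44).

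Efnb3, the third ephrin-B, was lower in both TCDD arrays at one of its probe sets. The probe set 103692_at had 156.4 and 142.4 in DMSO and 133.0 and 131.6 in TCDD (log2 difference -0.16 ± 0.20 SE). At the other (94160_at) the signals were 94.5 and 71.6 against 55.7 and 82.9, where TCDD replicate 1 was lowest and the groups overlapped. Of the lipid-anchored ephrins, Efna1 had 80.9 and 117.6 in DMSO and 89.9 and 121.7 in TCDD, both replicate 2 arrays lying above both replicate 1 arrays. Efna3 had 185.3 and 160.1 against 162.5 and 158.1, with DMSO replicate 1 highest and the other arrays close together. Efna2, Efna4 and Efna5 were below the filter.

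Eph receptors in the fit were Epha3, Epha4, Ephb3 and Ephb6, and all 5 of their probe sets were lower, with log2 differences from -0.17 to -0.04, each with an SE larger than its difference. In the replicate 1 arrays all 5 were lower in TCDD (median -0.23), but in the replicate 2 arrays only 2 were (median 0.06). Of all probe sets tested, 48.3% and 49.8% were lower there. Ephb6, a receptor whose kinase domain is inactive, did not overlap between groups at 102871_at, with 78.0 and 82.6 in DMSO and 63.9 and 76.4 in TCDD (log2 difference -0.16 ± 0.22 SE), and leaving out each array in turn gave -0.27 to -0.06. The gap there between the lowest DMSO and the highest TCDD array was small, and the second Ephb6 probe set (162371_r_at) had 75.5 and 50.8 against 66.6 and 53.7, overlapping. Ephb3, a receptor of ephrin-B ligands, had 93.6 and 59.3 in DMSO and 67.4 and 72.3 in TCDD, with both TCDD arrays inside the DMSO range.

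The EphA receptors varied between replicate numbers more than between treatments. Epha3, a receptor of ephrin-A ligands, had 58.6 and 92.1 in DMSO and 35.7 and 107.5 in TCDD. Replicate 2 exceeded replicate 1 by 0.54 in DMSO and 1.26 in TCDD on the log2 scale, against a treatment difference of -0.17 ± 0.37 (SE). Epha4, which binds ephrins of both classes, had 54.7 and 80.2 in DMSO and 51.8 and 74.1 in TCDD at 104673_at. The 2 groups gave nearly the same pair of values, and the treatment difference was -0.08 ± 0.26 (SE).

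Semaphorins held the largest treatment differences of the set, and these ran both ways: 3 of 8 probe sets were higher and 5 lower. Sema6d, a membrane semaphorin that binds plexin-A1, had 83.5 and 59.9 in DMSO and 33.9 and 49.8 in TCDD. Both TCDD arrays were below both DMSO arrays. The log2 difference was -0.60 ± 0.26 (SE), with an unadjusted limma p of 0.04 and a 95% interval from -1.17 to -0.03. It was -1.0 in the replicate 1 arrays and -0.21 in the replicate 2 arrays, so that most of it came from replicate 1. Without DMSO replicate 1 the mean signal of Sema6d fell below the filter, and in the other leave-one-out fits the difference lay between -0.80 and -0.40.

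Sema6c, of the same subclass, had the opposite sign. It had 19.8 and 59.5 in DMSO and 52.9 and 83.2 in TCDD (log2 difference 0.67 ± 0.35 SE). DMSO replicate 1 stood far below the other arrays, its value is the only one among the 27 probe sets that had been stored as a day serial, and DMSO replicate 2 lay between the TCDD arrays. Without DMSO replicate 1 the difference was 0.13, without DMSO replicate 2 it was 1.21 and without TCDD replicate 1 it was 0.93. Without TCDD replicate 2 the mean signal fell below the filter.

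Class 4 semaphorins, membrane proteins that act mainly through plexin-B receptors, also differed in sign. Sema4f had 138.3 and 86.2 in DMSO and 85.3 and 71.5 in TCDD, without overlap, but DMSO replicate 2 and TCDD replicate 1 were almost equal. Its log2 difference was -0.42 ± 0.25 (SE), and it was -0.12 without DMSO replicate 1 and -0.71 without DMSO replicate 2. Sema4d, the ligand of plexin-B1, had 151.5 and 109.2 in DMSO and 172.4 and 140.0 in TCDD. The groups overlapped, yet TCDD was the higher array within each replicate number, by 0.17 and 0.32 (log2 difference 0.24 ± 0.23 SE). The difference was 0.03 without DMSO replicate 2, 0.11 without TCDD replicate 1, 0.38 without TCDD replicate 2 and 0.45 without DMSO replicate 1. Sema4a had 137.7 and 173.3 in DMSO against 110.8 and 158.5 in TCDD, lower in TCDD within each replicate number by smaller amounts than the replicates differed.

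Sema4b was measured by 3 probe sets that did not run together. At 95387_f_at it had 127.2 and 137.5 in DMSO and 179.0 and 123.4 in TCDD, at 162133_at 75.0 and 41.2 against 47.6 and 49.9, and at 94637_at, below the filter, 21.6 and 12.9 against 12.3 and 10.2. The log2 differences of the 2 in the fit were 0.15 and -0.16. Sema7a, a lipid-anchored semaphorin that can bind integrins, had 87.7 and 48.3 in DMSO and 48.1 and 57.1 in TCDD at 93411_at, where DMSO replicate 1 alone stood high (log2 difference -0.25 ± 0.27 SE).

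**Figure D2:**
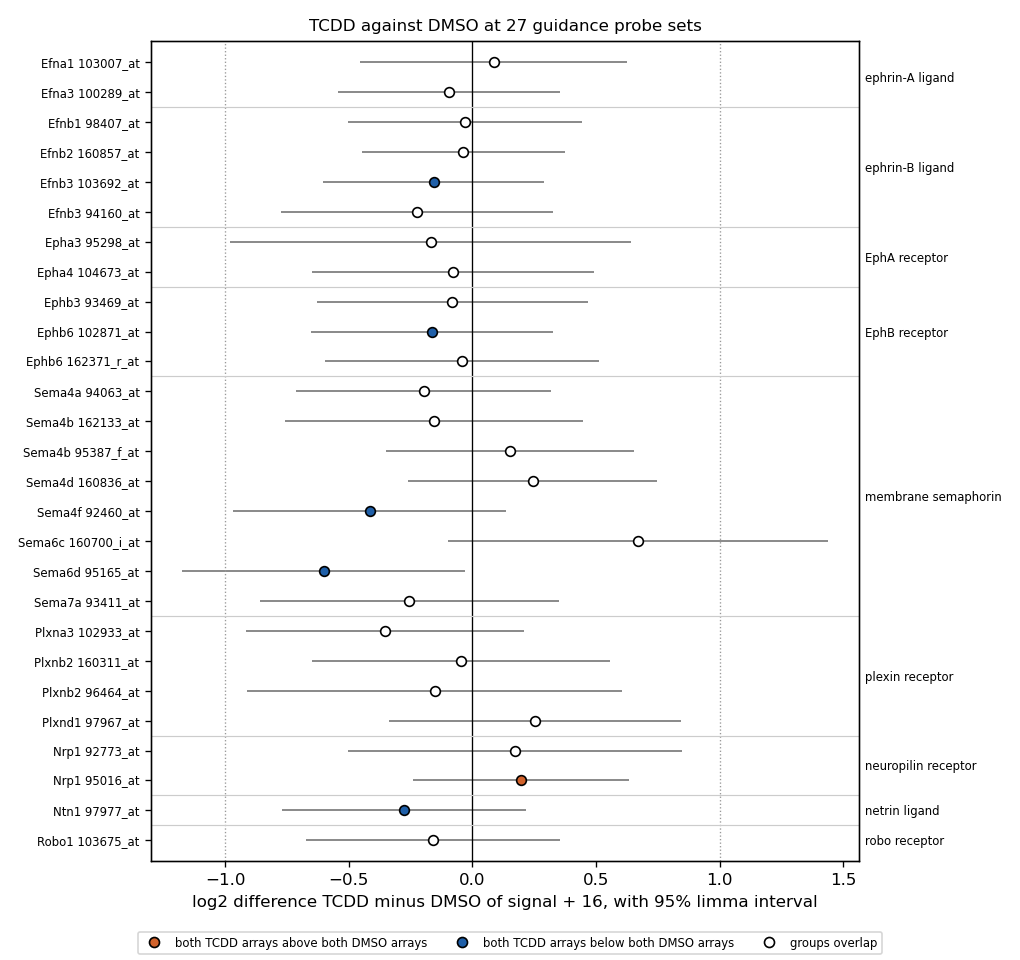
Log2 difference TCDD minus DMSO in signal + 16 with its 95% limma interval for the 27 guidance probe sets, by role; filled points mark groups that do not overlap and dotted lines a 2-fold change. All intervals but that of Sema6d cross 0, and those of Sema6d and Sema6c reach past 2-fold.

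Among the receptors of semaphorins, 3 of 6 probe sets were higher and 3 lower. Nrp1, which binds class 3 semaphorins and vascular endothelial growth factor, was the only member with both TCDD arrays above both DMSO arrays. At 95016_at it had 197.5 and 221.4 in DMSO and 250.7 and 233.3 in TCDD (log2 difference 0.20 ± 0.20 SE, 95% interval from -0.24 to 0.63). At its other probe set (92773_at) it had 131.7 and 86.9 against 175.1 and 85.0, with both replicate 1 arrays above both replicate 2 arrays. The differences there were 0.37 in replicate 1 and -0.03 in replicate 2.

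Plxnd1, the plexin that binds Sema3e without a neuropilin and is prominent in endothelium, had 66.2 and 98.9 in DMSO and 78.4 and 126.0 in TCDD. It overlapped between groups and was higher in TCDD within each replicate number, by 0.20 and 0.31 (log2 difference 0.25 ± 0.27 SE). Over the 27 members, 5 were higher in TCDD within both replicate numbers and 9 lower, where the shares of all probe sets were 27.8% and 26%. The summed signal of 9 endothelial markers was 806.8 and 777.2 in DMSO and 756.8 and 774.9 in TCDD. Of the 6 in the fit, 3 were higher and 3 lower. Emcn, an endothelial sialomucin, was higher without overlap (95.8 and 104.2 against 131.6 and 132.2), and Pecam1, an endothelial adhesion molecule, lower without overlap (107 and 49.8 against 42.5 and 43.3). Of all probe sets tested, 15.3% were higher and 14.6% lower without overlap.

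Plxna3, a plexin of class 3 semaphorin receptors, had 166.0 and 100.0 in DMSO and 88.0 and 108.6 in TCDD (log2 difference -0.35 ± 0.25 SE). Only DMSO replicate 1 stood high, and without it the difference was -0.03, while without DMSO replicate 2 it was -0.68. Plxnb2, a receptor of class 4 semaphorins, had 261.4 and 155.5 in DMSO and 239.1 and 159.0 in TCDD at 160311_at. Its second probe set (96464_at) had 105.6 and 145.7 against 66.8 and 176.5. The treatment differences were -0.05 ± 0.27 and -0.15 ± 0.34 (SE).

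Netrin-1 and robo were lower in TCDD at the probe sets in the fit. Ntn1 (97977_at) had 76.5 and 71.2 in DMSO and 61.2 and 55.2 in TCDD, with no overlap and nearly the same difference in replicate 1 (-0.26) and replicate 2 (-0.29). The SDs within groups were 3.75 and 4.24 around means of 73.9 and 58.2 (n = 2 each), yet with the variance shared across probe sets of like signal the log2 difference was -0.28 ± 0.22 (SE) and did not pass. Its dim probe set (97728_at) had 4.1 and 7.4 against 5.0 and 6.5. Robo1, the slit receptor, had 108.0 and 82.1 in DMSO and 93.4 and 73.0 in TCDD, overlapping but lower within each replicate number (-0.18 and -0.14).

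Promoter windows of RefSeq (GRCm38.p6, 250 bases before to 50 after an annotated start) were searched for the core of the aryl hydrocarbon receptor element, GCGTG, and for the longer TNGCGTG, which contains it, on both strands. Of the 42 member genes, 36 had at least 1 window, 49 windows in all. The core was found in 22 of these (44.9%) and in 32.4% of all 32851 windows, and the longer form in 2 (4.08%), of Efna1 and Epha8, and in 5.07% of all. The windows shown were chosen because Nrp1 and Ephb6 were members with non-overlapping groups that hold the core, and Efna1 holds the longer form but overlapped between the groups; capitals mark the match, here read on the opposite strand.
Nrp1, chr8:128358823-128359122, plus strand: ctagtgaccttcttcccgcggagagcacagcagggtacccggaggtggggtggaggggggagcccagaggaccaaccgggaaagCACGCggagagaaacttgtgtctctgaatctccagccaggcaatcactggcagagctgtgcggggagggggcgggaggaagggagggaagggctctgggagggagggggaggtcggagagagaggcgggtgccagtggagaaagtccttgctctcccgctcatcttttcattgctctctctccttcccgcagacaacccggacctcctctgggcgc
Ephb6, chr6:41605261-41605560, plus strand: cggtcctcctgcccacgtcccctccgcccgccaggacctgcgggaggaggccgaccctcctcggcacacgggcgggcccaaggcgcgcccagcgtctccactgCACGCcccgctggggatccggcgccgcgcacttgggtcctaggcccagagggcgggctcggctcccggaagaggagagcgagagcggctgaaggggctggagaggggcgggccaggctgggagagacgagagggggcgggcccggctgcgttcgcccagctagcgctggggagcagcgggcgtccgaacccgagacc
Efna1, chr3:89280902-89281201, minus strand: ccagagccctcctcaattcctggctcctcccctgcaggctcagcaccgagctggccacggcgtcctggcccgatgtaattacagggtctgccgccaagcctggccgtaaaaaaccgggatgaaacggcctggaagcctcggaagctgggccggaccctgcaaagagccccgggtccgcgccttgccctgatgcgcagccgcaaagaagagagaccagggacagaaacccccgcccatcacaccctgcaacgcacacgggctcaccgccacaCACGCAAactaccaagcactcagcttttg
The windows of Sema6d and Sema4f and the other window of Efna1 held neither form. Efnb3 and Ntn1, also members with non-overlapping groups, had no window. A match in these windows is a description of the sequence, and no binding was measured.

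Below the filter lay 28 probe sets of 25 genes, 20 of which had no probe set in the fit: Efna2, Efna4, Efna5, Epha2, Epha5, Epha6, Epha7, Epha8, Plxna1, Plxna2, Robo3, all 5 class 3 semaphorins (Sema3a, Sema3b, Sema3c, Sema3e and Sema3f), Sema5a, Sema5b, Sema6a and Sema6b. The signals of the 28 probe sets ranged from 1.2 to 57.7. The detection calls of the arrays were not used here, so a low signal does not show that a gene was silent. Day serials had stood in 25 of them, so these values rest on the repair. In the fit without the filter 17 of the 28 were lower in TCDD, where 71.1% of all probe sets below the filter were, and the lowest limma adjusted p was 0.979. The log2 differences ran from -0.32 to 0.21 for 3 ephrin probe sets, from -0.60 to 0.22 for 8 of Eph receptors, from -0.39 to 0.12 for 13 of semaphorins, and from -0.27 to -0.13 for Plxna1 and Plxna2. Groups did not overlap at 5 of the 28, against 33.1% of all probe sets below the filter, and all 5 were lower in TCDD (26.2% of all).

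These 5, named after their values were seen, were Efna2, Plxna2, Sema3c and 1 dim probe set each of Epha5 (98376_at) and Sema4b (94637_at). Plxna2, a plexin that serves class 3 semaphorin receptors, had 42.9 and 34.1 in DMSO and 24.9 and 33.7 in TCDD, with TCDD replicate 2 and DMSO replicate 2 almost equal. Sema3c, a secreted semaphorin of the outflow tract, had 13.1 and 11.0 against 1.7 and 9.8. Efna2 and Sema3a lay closest to the filter. Efna2, a lipid-anchored ephrin, had 57.0 and 51.5 in DMSO and 33.9 and 47.7 in TCDD, lower without overlap, with a log2 difference of -0.32 and a limma adjusted p of 0.979 in the fit without the filter. Sema3a, the repellent of dental nerve fibres and also named after its values were seen, had 36.4 and 57.7 in DMSO and 33.8 and 53.2 in TCDD. Both of its replicate 2 arrays were above both replicate 1 arrays, and TCDD minus DMSO was -0.07 and -0.09 within the replicate numbers.

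Differences between replicate numbers were larger than those between treatments at many members, and at a similar share of all probe sets. At 17 of the 27 probe sets (63.0%) the mean difference of replicate 2 minus replicate 1 exceeded the treatment difference, as at 56.4% of all probe sets. Its median size was 0.31 on the log2 scale against 0.16 for treatment. Over all probe sets tested these medians were 0.18 and 0.15. The replicates differed the same way in both groups at 18 of 27 members (66.7%, beside 59% of all probe sets), 9 with replicate 2 higher and 9 with replicate 1 higher. Across the 27 probe sets the replicate difference in DMSO and in TCDD had a Pearson correlation of 0.58, and of 0.38 across all 5783. Probe sets of 1 gene share their target, and the replicate differences and the treatment differences come from the same 4 arrays, so these values are descriptions.

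**Figure D3:**
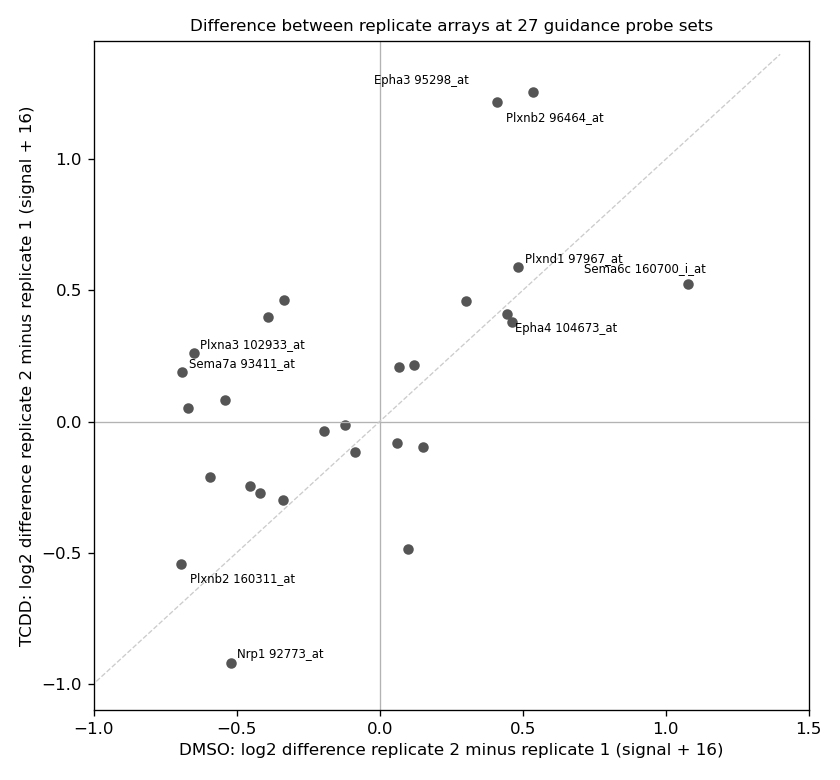
Log2 difference of replicate 2 minus replicate 1 (signal + 16) in DMSO (horizontal) and in TCDD (vertical) for the 27 guidance probe sets; the dashed line marks equality. Of the points, 18 lie in the quadrants of equal sign, with Epha3 and a Plxnb2 probe set high in both groups and an Nrp1 and another Plxnb2 probe set low in both.

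Probe sets of the same gene did not always move together between the replicates. Of 5 genes with 2 probe sets in the fit, 4 (Efnb3, Ephb6, Nrp1 and Plxnb2) had mean replicate differences of opposite sign, while 1 (Sema4b) had treatment differences of opposite sign. Only for Plxnb2 and Ephb6 were the signs opposite within both groups. The means of Efnb3 were near 0, at -0.07 (103692_at) and 0.06 (94160_at), as was that of Nrp1 at 95016_at (0.03). Plxnb2 was lower in replicate 2 at 160311_at (-0.69 in DMSO and -0.54 in TCDD) and higher at 96464_at (0.41 and 1.22). Epha4 was higher in replicate 2 at 104673_at, by 0.44 and 0.41, and lower at its dim probe set 161866_at, which had 46.3 and 8.9 in DMSO and 20.1 and 2.7 in TCDD. Sema4a repeated this pattern, with 27.6 and 13.2 in DMSO and 20.4 and 8.7 in TCDD at 161530_r_at and the reverse order at 94063_at. The dim Sema7a probe set (97794_at) had 10.9 and 25.5 against 11.7 and 30.1, higher in replicate 2 in both groups.

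**Figure D4:**
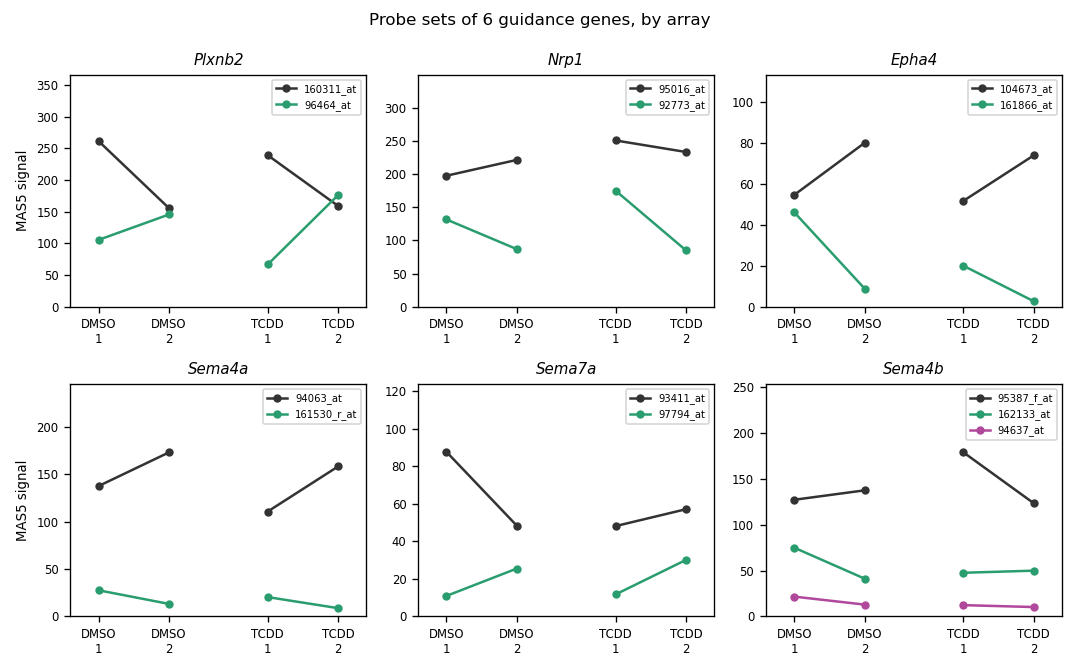
MAS5 signal (vertical, linear from 0) on each of the 4 arrays for all probe sets of 6 genes, with a line joining the 2 replicates of a group. For Plxnb2, Epha4 and Sema4a the lines of the 2 probe sets slope in opposite directions, and do so in both groups.

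Among markers of tissues in the explants, the summed signals of skeletal muscle, nerve and glia, dental mesenchyme and red blood cell markers separated by replicate number. Those of muscle and of nerve and glia were higher in replicate 1, and those of mesenchyme and red blood cells higher in replicate 2. The sums of macrophage markers and of dental epithelium markers were higher in both TCDD arrays than in both DMSO arrays. For epithelium the margin was small, 4422.3 in TCDD replicate 1 against 4398.3 in DMSO replicate 2, and the bright genes Krt17, Dsp and Perp weigh most in that sum. The summed signal of 10 skeletal muscle markers was 987 in DMSO replicate 1 and 1312.8 in TCDD replicate 1, against 434.1 and 471.1 in the replicate 2 arrays, with none of them at 0. That of 12 dental epithelium markers was 3274.7 and 4398.3 in DMSO and 4422.3 and 4887.5 in TCDD, and that of 13 dental mesenchyme markers 4417.7 and 5035.3 against 5016.3 and 5436.5, both lowest in DMSO replicate 1. Of the 9 epithelium markers in the fit, 7 were higher in TCDD and 2 lower. Perp and Dsp were higher without overlap, and Cdh1 was lower without overlap (170.3 and 141.1 in DMSO against 101.2 and 120.5 in TCDD). Of all probe sets tested, 15.3% were higher and 14.6% lower without overlap. Of the 11 mesenchyme markers in the fit, 7 were higher and 4 lower. For 14 nerve and glia markers the summed signal was 851.7 and 821.8 in DMSO and 897 and 696.3 in TCDD. Only Tubb3, Pmp22 and Sox10 of these reached the filter, and the neuronal genes Stmn2, Gap43, Nefl, Nefm and Prph did not. Macrophage markers (9) summed to 664 and 626.8 in DMSO against 865.6 and 853 in TCDD. All 7 in the fit were higher in TCDD (median log2 difference 0.35). At 4 of them (Ctss, Lyz2, C1qb and C1qc) the groups did not overlap, where 15.3% of all probe sets tested were higher without overlap. An unadjusted limma p under 0.05 was seen at 3, where 2.59% of all probe sets tested had one. Red blood cell markers (6) summed to 4514.8 and 4994.6 against 3684.2 and 4856.8. None of the tissue markers in the fit passed the limma test, and their part in the values of the guidance genes was not tested.

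Among the downstream genes of guidance signalling, 17 of 22 in the fit were higher in TCDD and 5 lower, with a median log2 difference of 0.09, beside 48.9% lower and a median of 0.01 over all probe sets. None passed the adjusted limma test, and 1 of the 22 had an unadjusted p under 0.05, where 2.59% of all probe sets tested did. Groups did not overlap at 6 that were higher and 2 that were lower, where 15.3% and 14.6% of all probe sets tested did so. Tiam1, an exchange factor that activates Rac and is engaged by ephrin-B and EphA signalling, had 153.7 and 182.8 in DMSO and 232.1 and 238.4 in TCDD (log2 difference 0.45 ± 0.20 SE). Enah, an actin regulator downstream of robo and netrin receptors, had 177.3 and 206.8 against 258.2 and 247.0. Ptpn13, a phosphatase that can bind ephrin-B tails, had 165.0 and 252.5 against 275.7 and 284.7. Pick1, a PDZ protein that binds ephrin-B and Eph receptors, ran the other way, with 121.3 and 69.7 in DMSO and 53.2 and 60.3 in TCDD.

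The other receptors and ligands were few. Of 15 listed genes of netrin and related receptors 3 were found and 2 reached the filter. Neo1, which encodes the netrin receptor neogenin, had 109.4 and 161.6 in DMSO and 66.0 and 136.0 in TCDD, with replicate 2 higher in both groups. Unc5c, a repulsive netrin receptor, had 51.0 and 50.4 against 68.2 and 52.6, higher without overlap. All 15 listed co-receptors and shared ligands were found and 5 were in the fit, 3 higher and 2 lower. Among them was Adam10, a protease that cleaves ephrins, at 0.21 ± 0.21 (log2 difference, SE), with overlapping groups. Only at Itgb1 did the groups not overlap, with 1520.4 and 1729.9 in DMSO and 1765.3 and 1808.9 in TCDD. Vegfa and Kdr, the ligand and receptor that share Nrp1 with semaphorins, were below the filter. Of 11 neurotrophic factors and receptors found, 4 reached the filter, 2 higher and 2 lower, and none passed the adjusted limma test. Gdnf had 71.9 and 53.5 in DMSO and 44.8 and 39.1 in TCDD, lower without overlap (log2 difference -0.43 ± 0.24 SE). Nrtn was also lower and Bdnf higher without overlap. Over all probe sets tested 15.3% were higher and 14.6% lower without overlap.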

How the data were processed

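Per the labels, the authors hybridised each RNA pool to a murine U74v2A oligonucleotide array and computed signals with Affymetrix Microarray Suite 5.0; the deposited values are these MAS5 intensities on a linear scale, target 100. Of all cells 37.1% held a calendar day serial (38718 to 38990) instead of a signal, as did 76 of 220 member cells; they were turned back into day.month, after which the trimmed mean signal was 100.05 on each array. Gene names came from the platform annotation, updated through the GRCm38.p6 gene table (0 symbols changed). The fit used limma 3.58.1 in R 4.3.3 (eBayes with a trend) on log2(signal + 16), with a mean signal of at least 50, no controls, and Benjamini-Hochberg adjustment over all 5783 probe sets; intervals are 95%. The procedure was tested on simulated data. Lists used the probe set with the highest mean of a gene. An exact permutation test over 2 against 2 arrays cannot reach 0.05 and was not run. Signals, log2 difference and SE were given for members with non-overlapping groups or among the 8 smallest p, and signals or log2 difference for the other members in the fit, some with an SE or interval beyond that rule; lists name up to 4 genes by p and some defining markers. The members and lists were chosen with earlier results of these data known. The number of arrays limits the precision. Detection calls were not used.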

Additional observations from a re-analysis of the deposited data

How the results depend on the processing

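No member passed the adjusted limma test in any alternative that was run: offsets of 1 and 64, no filter, a mean signal of at least 100, quantile normalization, no variance trend, a replicate block, day serials set to 16, 1 probe set a gene, and each array left out. The calls over all probe sets were 4, with 2 without the filter, 32 with the replicate block and 2 to 5 with an array left out (2 without DMSO replicate 1 and without TCDD replicate 2). In the block fit the lowest adjusted p of a member was 0.207; arrays of the same number deviated together (Pearson 0.38 over all probe sets), but the labels give no pairing. Of the members, 6 had non-overlapping groups, against 11 of 55 without the filter, 2 of 13 at a mean of at least 100, and 12 to 18 with an array left out, where only 2 array pairs must agree. The shares of all probe sets without overlap were not counted in these alternatives. The count lower in TCDD, added after seeing the data, was 20, with 37 of 55 without the filter, 8 of 13 at a mean of at least 100, and 13 to 19 with an array left out. The median log2 difference lay between -0.14 and -0.03. Leaving out 1 array turned the sign of 17 of the 27 single log2 differences, none of them called, with these ranges: Efna1 (-0.15 to 0.32), Efna3 (-0.19 to 0.0015), Efnb1 (-0.14 to 0.077), Efnb2 (-0.078 to 0.0042), Efnb3 94160_at (-0.46 to 0.0075), Epha3 (-0.80 to 0.46), Epha4 104673_at (-0.30 to 0.14), Ephb3 (-0.35 to 0.19), Ephb6 162371_r_at (-0.27 to 0.18), Nrp1 92773_at (-0.29 to 0.63), Plxnb2 160311_at (-0.39 to 0.30), Plxnb2 96464_at (-0.76 to 0.46), Plxnd1 (-0.042 to 0.55), Robo1 (-0.33 to 0.0084), Sema4a 94063_at (-0.43 to 0.033), Sema4b 95387_f_at (-0.089 to 0.40) and Sema7a 93411_at (-0.60 to 0.090). The 10 others kept their sign in each such fit that held them: Efnb3 103692_at (-0.22 to -0.095), Ephb6 102871_at (-0.27 to -0.059), Nrp1 95016_at (0.12 to 0.27), Ntn1 97977_at (-0.34 to -0.22), Plxna3 (-0.68 to -0.027), Sema4b 162133_at (-0.49 to -0.13), Sema4d (0.034 to 0.45), Sema4f (-0.71 to -0.12), Sema6c (0.13 to 1.21) and Sema6d (-0.80 to -0.40).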
